A study of Homo sapiens with 15 samples.

Results

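The genes described here encode chains of the major histocompatibility complex (MHC) class I molecules, or proteins that cut, transport and load their peptides. The 9 members were taken by symbol from the deposited expression table: HLA-B, HLA-C, HLA-E, B2M, TAP1, TAP2, TAPBP, PSMB8 and PSMB9. They stood for 9 of the 25737 entries in the table. Their symbols occurred in 58 entries, of which 9 (1 for each symbol) had counts and the other 49 were at 0 in every library, so 1 entry per gene is described. All 9 members passed the filter on low values.

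The cells were U87MG, an established human glioblastoma line that the study bought from ATCC, grown in serum-containing DMEM. Each of the 5 groups had 3 libraries of total RNA taken 24 h after lentivirus. The first group received a control lentivirus for GFP, and each of the other groups received a lentivirus labelled for overexpression of 1 ID gene (ID1, ID2, ID3 or ID4). All groups therefore share the parent line, the serum medium and lentiviral exposure, and no untransduced group was analysed here. ID proteins are helix-loop-helix factors that lack a DNA-binding region and bind E proteins, which recognise the E-box sequence. ID4 mRNA was at 0 to 2 counts in the GFP libraries and at a counts-per-million level (CPM) of 223 ± 12.5 (SD, n = 3) in those labelled ID4, and ID3 was at 221 ± 8.33 CPM in GFP and 313 ± 11.4 in those labelled ID3 (SD, n = 3). In contrast, ID1 was at 344 ± 6.96 CPM in GFP and 249.7 ± 3.60 in the libraries labelled ID1 (SD, n = 3). ID2 was at 85.7 ± 2.81 CPM in GFP and 44.9 ± 1.28 in the libraries labelled ID2 (SD, n = 3). ID2 mRNA was also at 34.3 ± 2.59, 46.7 ± 1.73 and 35.9 ± 1.54 CPM in those labelled ID1, ID3 and ID4 (SD, n = 3). The rise of ID3 mRNA was not particular to its label, with 287 ± 27.8 CPM in the libraries labelled ID2 (SD, n = 3). Its range there (268 to 319) overlapped that in the libraries labelled ID3 (301 to 323). Reads of the QuantSeq kit come from the 3′ end of mRNA, so a transgene without the natural 3′ end would not be counted. The ID vectors are not described in the sources used here, and whether this holds for them was not tested. Groups are therefore named by their labels.

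A class I molecule is a heavy chain (such as HLA-B, HLA-C or the less polymorphic HLA-E) paired with the light chain β2-microglobulin, the product of B2M. Peptides are cut in the cytosol by the proteasome, whose inducible subunits PSMB8 and PSMB9 replace constitutive ones in the immunoproteasome, and are pumped into the endoplasmic reticulum by the TAP1 and TAP2 transporter. Tapasin, encoded by TAPBP, holds the empty heavy chain to that transporter until a peptide is bound. The pathway is known for its response to interferons and NF-κB. The members described here, apart from B2M, lie in the MHC region of chromosome 6.

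Promoter sequences are shown for the 5 members whose mRNA rose in the libraries labelled ID3, because those members rose together there. The sequences came from the RefSeq promoter table, made for GRCh38.p14, and each matched 1 place in the GRCh37 genome, the build of the files (hg19), from which the positions are given. Each is the 250 bases before the RefSeq start, written 5′ to 3′ along the gene. Capitals mark the core of the interferon-stimulated response element (GAAA, 2 bases of any kind, then GAAA again, on either strand) or GGGATTCCC, the κB sequence of the class I enhancer.
HLA-B, chr6:31324957-31325206, minus strand: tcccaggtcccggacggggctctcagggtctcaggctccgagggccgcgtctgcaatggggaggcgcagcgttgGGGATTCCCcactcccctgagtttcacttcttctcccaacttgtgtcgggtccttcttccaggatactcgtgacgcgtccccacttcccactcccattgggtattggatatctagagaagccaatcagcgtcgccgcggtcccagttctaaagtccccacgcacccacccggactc
HLA-C, chr6:31239870-31240119, minus strand: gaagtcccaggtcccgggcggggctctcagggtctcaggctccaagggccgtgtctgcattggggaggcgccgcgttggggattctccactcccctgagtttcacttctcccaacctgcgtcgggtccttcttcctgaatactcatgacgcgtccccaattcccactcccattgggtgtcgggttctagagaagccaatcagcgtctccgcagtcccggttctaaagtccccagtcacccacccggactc
B2M, chr15:45003465-45003714, plus strand: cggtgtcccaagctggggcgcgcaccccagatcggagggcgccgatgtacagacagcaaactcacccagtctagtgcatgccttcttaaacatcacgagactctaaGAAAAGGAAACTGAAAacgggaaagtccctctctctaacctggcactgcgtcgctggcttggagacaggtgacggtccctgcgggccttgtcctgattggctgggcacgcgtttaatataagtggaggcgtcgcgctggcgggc
TAP1, chr6:32821482-32821731, minus strand: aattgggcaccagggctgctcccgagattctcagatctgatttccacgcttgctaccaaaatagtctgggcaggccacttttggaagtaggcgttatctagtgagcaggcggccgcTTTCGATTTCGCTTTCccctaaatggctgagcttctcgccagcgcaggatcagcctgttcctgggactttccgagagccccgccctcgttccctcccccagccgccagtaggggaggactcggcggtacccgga
TAPBP, chr6:33281856-33282105, minus strand: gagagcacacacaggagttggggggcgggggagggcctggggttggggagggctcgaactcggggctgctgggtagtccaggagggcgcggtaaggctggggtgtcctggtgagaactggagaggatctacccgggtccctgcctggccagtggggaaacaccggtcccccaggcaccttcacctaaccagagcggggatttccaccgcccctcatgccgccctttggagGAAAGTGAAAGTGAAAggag

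Motifs were counted on both strands of windows that ran 250 bases before to 50 bases after the start, for 10 windows of 8 members. HLA-E had no window, and TAP1 and PSMB8 had 2 each. A member was counted if any of its windows held a match, while the shares of all promoters are per window, so the 2 are not in the same unit. The interferon element core was found for 5 of 8 members (B2M, TAP1, TAP2, TAPBP and PSMB8), compared with 3.57% of 35116 promoters in the table. In the windows of B2M, TAP1 and TAPBP, 2 overlapping copies were found. The exact sequence GGGATTCCC was found only for HLA-B among the 8 members and in 0.384% of all promoters. The window of HLA-C held neither capitalised sequence. Variants of the κB sequence or of the interferon element with other letters were not searched, so a window without capitals may still hold such a site. The E-box CANNTG, the sequence that E proteins bind, was found for B2M, PSMB8 and PSMB9 and in 68.7% of all promoters. Other sequences searched were CCAAT (5 of 8 members and 34.6% of all promoters), TGACG (6 of 8 and 24.6%) and TTCNNNGAA (2 of 8 and 7.66%). The TAP1 and PSMB9 windows shared 13 bases on opposite strands.

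Library totals ranged from 11089044 to 15148979 counts, at which 3 counts correspond to 0.198 to 0.271 CPM, an allowance for counting error only. The member with the fewest counts, PSMB9, had 83 to 140 counts per library, and B2M had 29707 to 62306. Library 3 of the ID2 group stood apart from its 2 partners, with a chi-square per degree of freedom of 10.9 and 11.5 against them, while the other pairs within groups lay between 2.22 and 5.33. No 2 libraries of the same group agreed within sampling noise. Of 11 glial and glioma markers, 4 were tested. Against GFP, 1, 2, 1 and 0 rose and 1, 1, 1 and 0 fell in the order ID1 to ID4. Over all genes tested, 12.4%, 18.5%, 15.1% and 12.1% rose and 9.73%, 16.7%, 13.5% and 9.51% fell. The 11 markers summed to 4109 to 5338 CPM, nearly all from VIM (3481 CPM or more in each library) and CD44. AQP4 was at 0 and GFAP at 0 to 4 counts. Of the 3 genes known to be deleted in this line, none was tested: CDKN2A and CDKN2B were at 0 in every library and MTAP was at 0 to 3 counts. Of the 14 immune and class II markers, MS4A1 was at 0 and PTPRC, the marker of all leukocytes, at 0 to 8 counts. Others of the list were well counted, with CD68 at 586 to 1038 counts, CD74 at 633 to 993, HLA-DRA at 823 to 1417 and HLA-DRB1 at 1397 to 2266.

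Differences were tested with edgeR's quasi-likelihood test over the 12870 genes in the upper 50% of mean deposited log2 value, with Benjamini-Hochberg adjustment and a threshold of 0.05. Over the 5 groups, 7 of 9 members differed, and 44.8% of all genes tested did. PSMB8 (adjusted p = 0.306) and PSMB9 (adjusted p = 0.280) did not pass. Against GFP, 1 member rose and 0 fell in the libraries labelled ID1, where 12.4% of all genes tested were called higher and 9.73% lower. In those labelled ID2, 2 rose and 3 fell, beside 18.5% of all genes higher and 16.7% lower. In those labelled ID3, 5 rose and 0 fell, beside 15.1% higher and 13.5% lower. In those labelled ID4, 1 rose and 1 fell, beside 12.1% higher and 9.51% lower. The libraries did not overlap those of GFP for 3, 6, 7 and 3 of 9 members in the same order, as they did not for 37.1%, 42.3%, 40.6% and 37.1% of all genes tested. The median log2 fold change of the 9 members was 0.29 in the libraries labelled ID3, compared with 0.00 over all genes tested. It was -0.01, -0.10 and -0.01 in those labelled ID1, ID2 and ID4. The 4 comparisons share the GFP libraries. In bulk RNA, fewer expressing cells and less RNA per cell cannot be told apart.

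**Figure D1:**
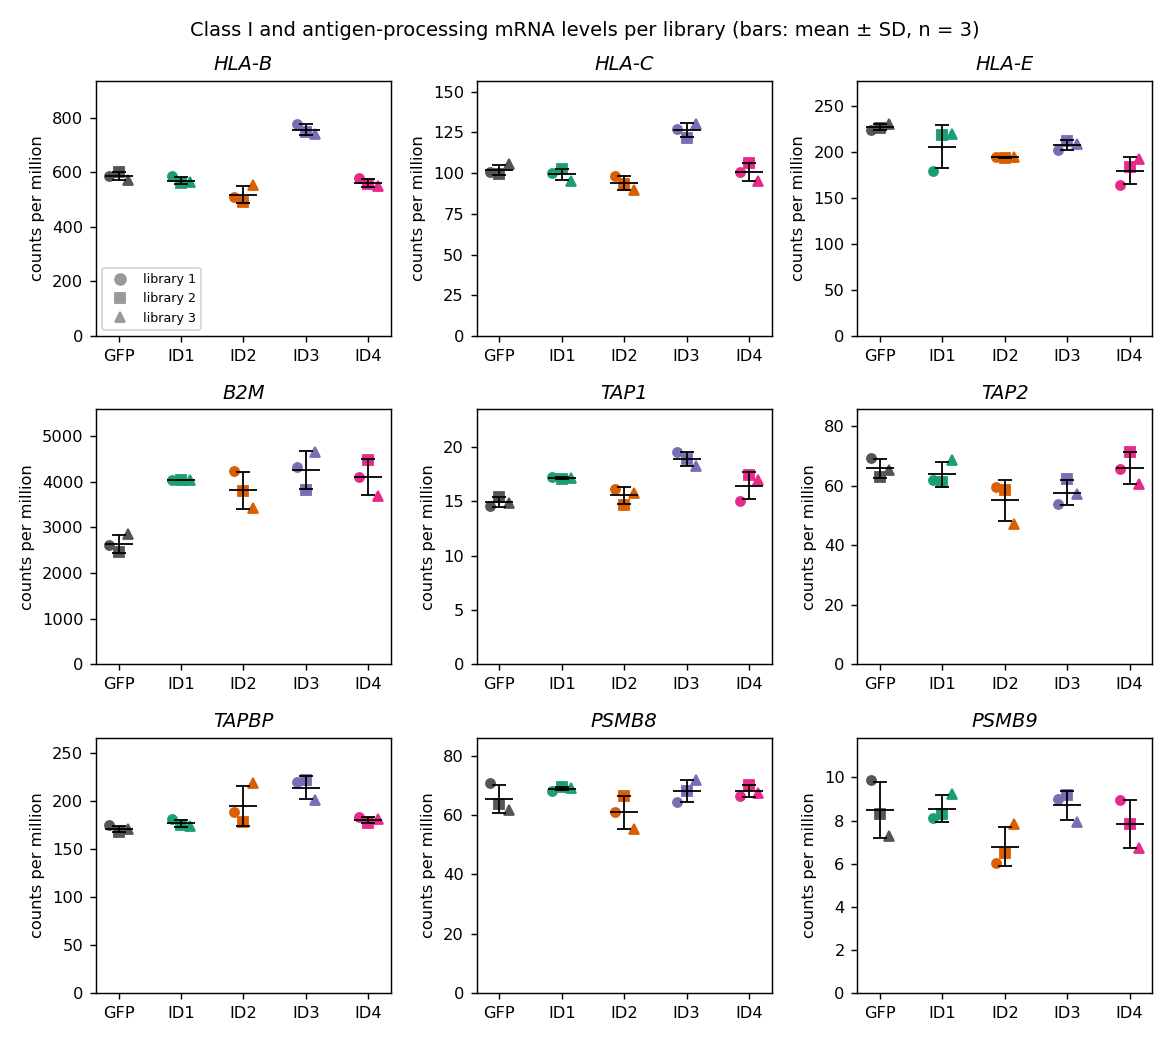
Levels of the 9 members in CPM (vertical axis, from 0) in each library, by group (horizontal axis). Points are libraries, marked by library number, and black bars are the mean ± SD of 3 libraries. B2M is higher in the 4 ID groups than in GFP, HLA-B and HLA-C are highest in the libraries labelled ID3, and HLA-E is highest in GFP.

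B2M, the light chain shared by all class I molecules, was the only member that rose in all 4 ID groups. Its mRNA level was 2616, 2462 and 2851 CPM in GFP libraries 1 to 3. It was 4045, 4030.3 and 4037 CPM in the libraries labelled ID1, and 4234, 3785 and 3418 CPM in those labelled ID2. It was 4318, 3814 and 4648 CPM in those labelled ID3, and 4103, 4482 and 3693 CPM in those labelled ID4. Every ID library was above every GFP library, and the 4 ID groups overlapped each other. The log2 fold change against GFP was 0.60 (SE 0.08, adjusted p = 4.34e-06) for ID1, 0.54 (SE 0.08, adjusted p = 7.53e-06) for ID2, 0.67 (SE 0.08, adjusted p = 7.83e-07) for ID3 and 0.63 (SE 0.08, adjusted p = 2.51e-06) for ID4, that is 1.46-fold to 1.59-fold. Among all genes tested, 786 (6.11%) rose in all 4 comparisons. Between ID groups, B2M differed by a log2 fold change of -0.12 to 0.05 and passed the test in no pair. The 95% interval for ID2 against ID3, the pair that differed most, ran from -0.27 to 0.03. At an unadjusted p under 0.05, edgeR called B2M in 0 of these 6 pairs as well.

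B2M lies on chromosome 15 (45003556 to 45011049 in GRCh37), and other genes of that chromosome were raised too. Over all genes tested, 12.4%, 18.5%, 15.1% and 12.1% rose in the order ID1 to ID4. Of 91 other tested genes within 5 Mb of B2M, 50 rose in the libraries labelled ID1, 32 in those labelled ID2, 39 in those labelled ID3 and 48 in those labelled ID4. The median log2 fold change of these 91 genes was 0.33, 0.22, 0.29 and 0.34 in that order, and over the 412 tested genes of chromosome 15 it was 0.34, 0.25, 0.32 and 0.37. The change in B2M exceeded the neighbours' median by 0.27, 0.33, 0.38 and 0.29 on the log2 scale, and 10 to 14 of the 91 neighbours had a higher log2 fold change than B2M. Among these neighbours was PDIA3, a disulphide isomerase of the peptide-loading complex at 44038592 to 44065477, named here after its values were seen. PDIA3 rose by log2 fold changes of 0.34, 0.46, 0.39 and 0.32 in the libraries labelled ID1 to ID4 (adjusted p = 0.0197, 0.00105, 0.00569 and 0.0292). The part of the chromosome-wide shift in the B2M result was not tested.

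**Figure D2:**
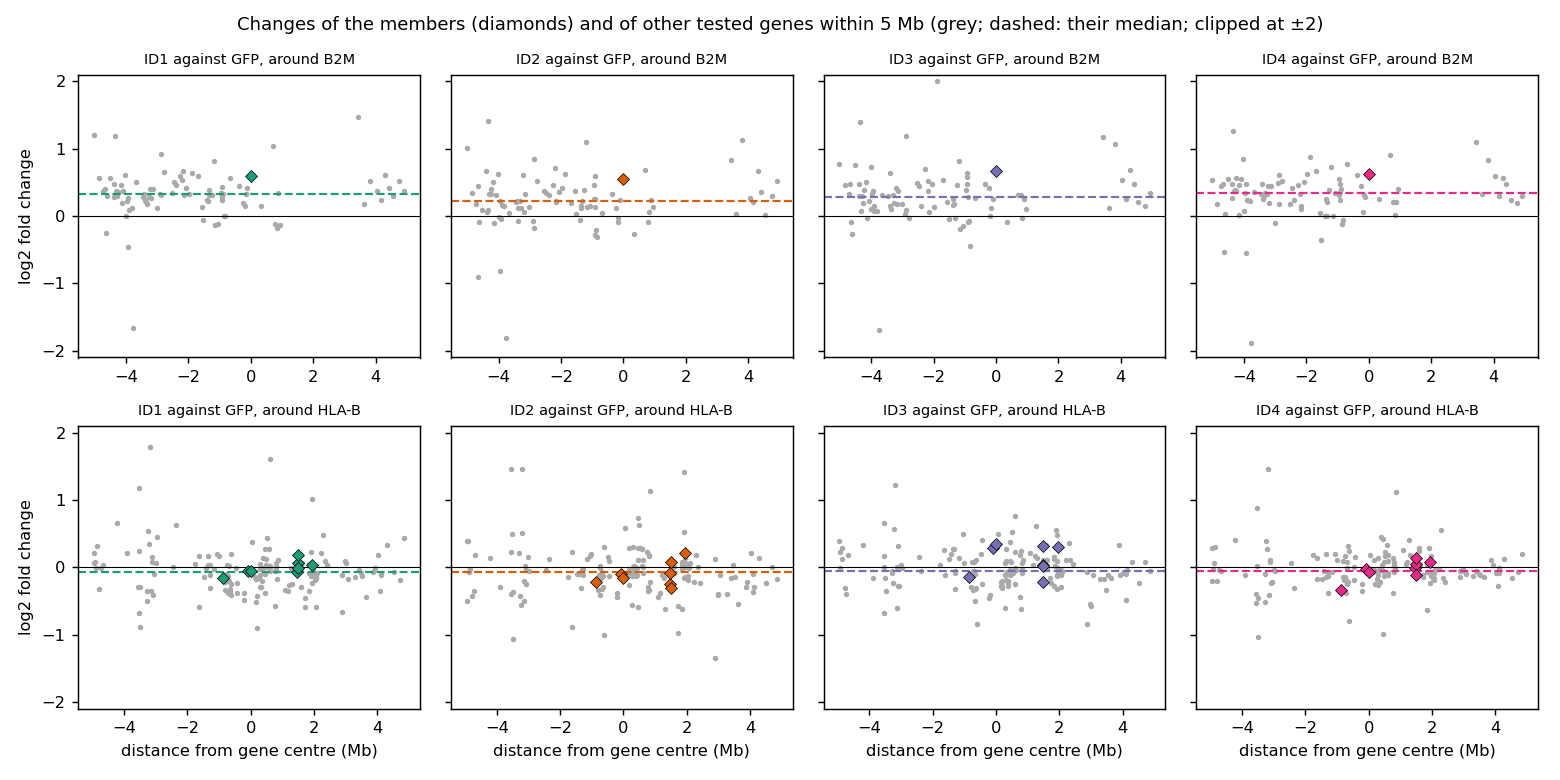
Log2 fold change against GFP (vertical axis, clipped at 2 in either direction) of genes within 5 Mb of B2M (upper row) and HLA-B (lower row), by distance from the gene's centre in Mb (horizontal axis). Grey points are other tested genes, dashed lines their median, and diamonds the members. Around B2M the median lies between 0.22 and 0.34, and around HLA-B between -0.07 and -0.05.

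The classical heavy chains HLA-B and HLA-C, which present peptides to cytotoxic T cells, rose only in the libraries labelled ID3 among the 4 comparisons with GFP. HLA-B (chromosome 6, 31321649 to 31334844) was at 588, 602 and 573 CPM in the GFP libraries and at 779, 749 and 742 CPM in those labelled ID3. It was at 586, 560.5 and 564 CPM in the libraries labelled ID1, at 511, 492 and 553 in those labelled ID2 and at 578, 559 and 549.6 in those labelled ID4. The lowest ID3 library was above the highest library of any other group. The log2 fold change of HLA-B for ID3 against GFP was 0.34 (SE 0.05, adjusted p = 1.41e-05, 1.27-fold). For ID1 and ID4 it was -0.06 (adjusted p = 0.440) and -0.07 (adjusted p = 0.383). In the libraries labelled ID2, HLA-B fell, with a log2 fold change of -0.16 (SE 0.05, adjusted p = 0.0121), a call that did not pass without GFP library 2 (-0.14, adjusted p = 0.0568), without ID2 library 2 (-0.12, adjusted p = 0.0765) or with only those 2 groups in the fit (adjusted p = 0.0751).

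HLA-C (chromosome 6, 31236526 to 31239907) was also highest in the libraries labelled ID3. Its level was 101, 99.4 and 105 CPM in the GFP libraries and 127, 122 and 130.4 CPM in those labelled ID3. The other 9 libraries lay between 89.6 and 106 CPM, so the ID3 libraries stood above all of them. The log2 fold change against GFP was 0.29 (SE 0.06, adjusted p = 0.00058) for ID3, and -0.05, -0.10 and -0.02 for ID1, ID2 and ID4 (adjusted p = 0.590, 0.187 and 0.845).

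The 14 immune cell and class II markers summed to 444 to 467 CPM in the libraries labelled ID3 and 404 to 424 in GFP. They summed to 445 to 493 CPM in those labelled ID4. With ID1 and ID2 the sums were 345 to 359 and 357 to 384 CPM. Among them, MS4A1 was at 0, AIF1 at 0 to 1, CD3E at 0 to 2, ITGAM at 0 to 3 and PTPRC at 0 to 8 counts in every library. CD68, a lysosomal marker of macrophages named after its values were seen, was at 52.2 ± 3.71 CPM in GFP and 60.7 ± 4.82 CPM in the libraries labelled ID3 (SD, n = 3), with a log2 fold change of 0.20 (adjusted p = 0.0455). It was highest in those labelled ID2, at 71.7 ± 1.80 CPM (SD, n = 3). The part of these markers in the HLA-B and HLA-C results was not tested.

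The difference of the ID3 group was also tested against each other ID group. HLA-B was lower than in the libraries labelled ID3 by a log2 fold change of -0.40 for ID1 (SE 0.05, adjusted p = 1.23e-05) and -0.51 for ID2 (SE 0.05, adjusted p = 2.33e-07), and ID3 was above ID4 by 0.41 (SE 0.05, adjusted p = 7.71e-06). For HLA-C the corresponding values were -0.34 (SE 0.06, adjusted p = 0.000556), -0.39 (SE 0.06, adjusted p = 6.21e-05) and 0.31 (SE 0.06, adjusted p = 0.00119). In these comparisons, 3 of 9 members were called for ID1 against ID3 (9.18% of all genes), 2 for ID2 against ID3 (15% of all genes) and 3 for ID3 against ID4 (11.3% of all genes). HLA-B and HLA-C were among the 78 genes (0.606% of those tested) that were higher in the ID3 libraries than in each of the other 4 groups. Outside the ID3 comparisons, 0 members were called by edgeR between ID1 and ID2 (18.6% of all genes called), between ID1 and ID4 (4.87%) and between ID2 and ID4 (18.6%). At an unadjusted p under 0.05, the counts in these pairs were 4, 1 and 1 of 9. The shares of all genes at that threshold, or called by the tools named next, were not computed, so these counts have no share beside them. DESeq2 and limma each called 0, 0 and 1 member, the last being TAP2, which was lower with ID2 than with ID4 (log2 fold change -0.24, SE 0.08, adjusted p = 0.0505 by edgeR).

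Heavy chain genes are near copies of each other, and reads can be placed on the wrong one. Over the last 300 bases of their canonical transcripts, HLA-B and HLA-C were identical at 93.2% of 295 aligned bases. How reads with several matches were counted is not given in the sources used here, so the split between these genes is uncertain. The summed counts of HLA-B and HLA-C do not depend on how reads were split between that pair, a sum made after the data were seen. The sum was at 689, 701 and 678 CPM in the GFP libraries and at 906, 871 and 873 CPM in those labelled ID3. Its log2 fold change was 0.34 (SE 0.05, adjusted p = 7.97e-06) for ID3, -0.15 (SE 0.05, adjusted p = 0.0111) for ID2, and -0.06 for both ID1 and ID4 (adjusted p = 0.412 and 0.404). Without ID2 library 2, the sum's log2 fold change for ID2 was -0.12 (adjusted p = 0.0685).

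Genes around HLA-B had a median change close to that of all genes tested. The 152 other tested genes within 5 Mb of HLA-B had a median log2 fold change of -0.05 in the libraries labelled ID3. Of these 152 genes, 11 were called higher and 24 lower, beside 15.1% higher and 13.5% lower over all genes tested. Upward changes larger than that of HLA-B were found for 14 of the 152. Relative to that median, HLA-B was raised by 0.40 on the log2 scale.

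HLA-E, a heavy chain that presents leader peptides of other class I molecules to natural killer cell receptors, went the other way. It lies at 30457286 to 30461971 of chromosome 6. Its level was 224, 226 and 231 CPM in the GFP libraries, and 164, 184 and 192 CPM in those labelled ID4. It was 179, 219 and 219.7 CPM in the libraries labelled ID1, 195, 193 and 195 in those labelled ID2, and 202, 212 and 209 in those labelled ID3. Every GFP library was above all 12 ID libraries. HLA-E fell with the ID4 label (log2 fold change -0.34, SE 0.07, adjusted p = 0.000817) and the ID2 label (-0.21, SE 0.07, adjusted p = 0.0182, and 0.0535 without GFP library 3). For ID1 and ID3 the log2 fold changes were -0.16 (adjusted p = 0.103) and -0.15 (adjusted p = 0.107), which did not pass. HLA-E aligned to HLA-B and HLA-C over 170 to 175 of the last 300 bases only, at 75.3% to 75.4% identity.

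**Figure D3:**
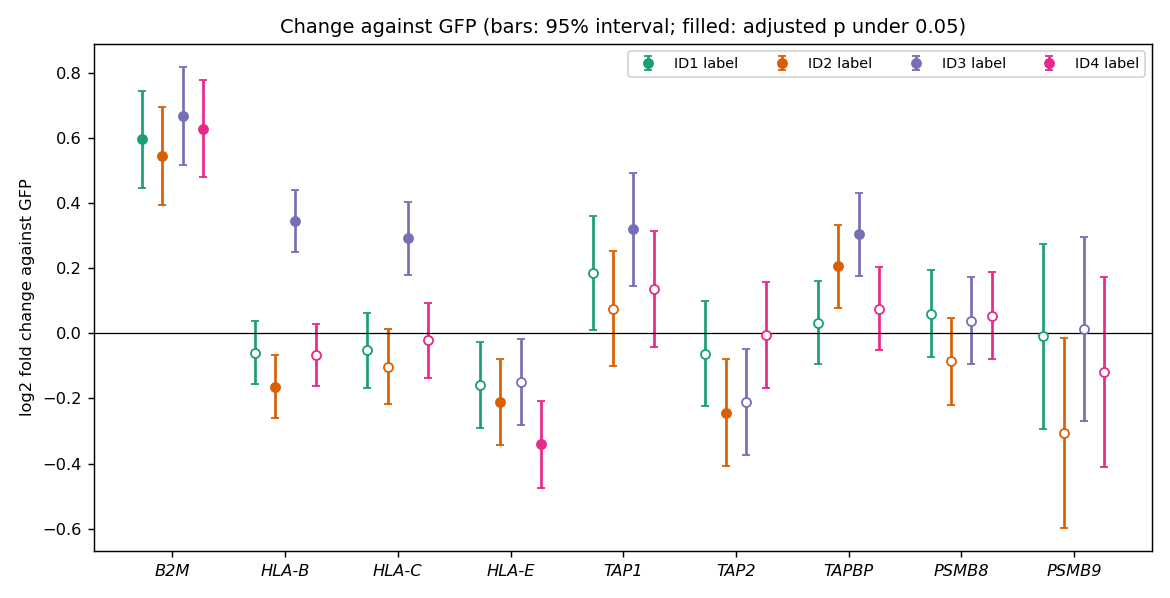
Log2 fold change against GFP (vertical axis) for each member (horizontal axis), by ID label (colour). Bars are the approximate 95% interval (1.96 standard errors on either side), and filled points mark an adjusted p under 0.05. B2M is filled at all 4 labels, between 0.54 and 0.67, while HLA-B, HLA-C and TAP1 are filled above 0 for the ID3 label only.

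Of the transporter pair, TAP1 rose with the ID3 label and TAP2 did not. TAP1 (chromosome 6, 32812986 to 32821593) was at 14.6, 15.4 and 14.8 CPM in the GFP libraries and at 19.5, 18.9 and 18.3 CPM in those labelled ID3, with a log2 fold change of 0.32 (SE 0.09, adjusted p = 0.00929). It was at 17.2, 17 and 17.2 CPM in the libraries labelled ID1, which also lay above GFP without overlap (0.18, SE 0.09, adjusted p = 0.155). The libraries labelled ID2 and ID4 overlapped GFP, with log2 fold changes of 0.08 (adjusted p = 0.562) and 0.14 (adjusted p = 0.319). TAP1 in the ID3 libraries was not separated by the test from the other ID groups (adjusted p = 0.366, 0.063 and 0.204 for ID1, ID2 and ID4), although every ID3 library was above every library of each of those groups.

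TAP2 (chromosome 6, 32789610 to 32806516) was at 69.4, 63.1 and 65.4 CPM in the GFP libraries, and at 59.5, 58.6 and 47.3 CPM in those labelled ID2. The fall with ID2 (log2 fold change -0.24, SE 0.08, adjusted p = 0.0264) did not pass without ID2 library 3 (-0.15, adjusted p = 0.140). It also missed the threshold without GFP library 1 (adjusted p = 0.0906), without GFP library 3 (adjusted p = 0.0532) and with only those 2 groups in the fit (adjusted p = 0.05515). In the libraries labelled ID3, TAP2 was at 54.1, 62.2 and 57.1 CPM, below every GFP library, with a log2 fold change of -0.21 (SE 0.08, adjusted p = 0.0617). That value passed without ID3 library 2 (-0.27, adjusted p = 0.0338), with no filter on low values (adjusted p = 0.0375) and with only those 2 groups in the fit (adjusted p = 0.0349). For ID1 and ID4 the log2 fold changes were -0.06 (adjusted p = 0.662) and -0.01 (adjusted p = 0.975).

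TAPBP (chromosome 6, 33267471 to 33282061) was at 175, 168 and 171 CPM in the GFP libraries. It was at 220.1, 221 and 201 CPM in those labelled ID3, all above every GFP library, with a log2 fold change of 0.30 (SE 0.06, adjusted p = 0.00111). The rise with ID2 (0.21, SE 0.06, adjusted p = 0.0165) came from 188, 178 and 219 CPM, and without the third of these libraries it was 0.11 (adjusted p = 0.153). Without GFP library 2, it was 0.19 (adjusted p = 0.0548), and with only those 2 groups in the fit, the adjusted p was 0.075. For ID1 and ID4 the log2 fold changes were 0.03 (adjusted p = 0.793) and 0.08 (adjusted p = 0.460). TAPBP was lower with ID1 than with ID3 (-0.27, SE 0.06, adjusted p = 0.00979, and 0.0558 without ID3 library 2) and higher with ID3 than with ID4 (0.23, SE 0.06, adjusted p = 0.0253, and 0.0591 to 0.116 without ID3 library 1 or 2 or any 1 of the ID4 libraries). ID2 and ID3 differed by -0.10 (adjusted p = 0.340), or by -0.20 without ID2 library 3 (adjusted p = 0.0147).

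The inducible proteasome subunits PSMB8 and PSMB9 did not pass any test of 2 groups. PSMB8 (chromosome 6, 32808494 to 32812456) lay between 55.4 and 71.7 CPM over the 15 libraries, and its log2 fold changes against GFP were 0.06, -0.09, 0.04 and 0.05 in the order ID1 to ID4 (adjusted p = 0.357 to 0.729). PSMB9 (chromosome 6, 32811913 to 32827628) lay between 6.05 and 9.86 CPM, with log2 fold changes of -0.01, -0.31, 0.01 and -0.12 (adjusted p = 0.119 to 0.978). The approximate 95% interval of PSMB9 was wide, from -0.60 to -0.01 for ID2 and from -0.27 to 0.30 for ID3. It is narrower than the test implies, as edgeR's unadjusted p for ID2 was 0.0518 although that interval leaves out 0. Without ID2 library 3, PSMB9 fell with the ID2 label (-0.43, adjusted p = 0.0449). The annotated PSMB9 gene overlaps TAP1 and PSMB8 on the opposite strand, by 8608 and 544 bases, and PSMB8-AS1 overlaps all 3. Whether the counting used strand is not given in the sources used here, so reads in the shared stretches could not be assigned with certainty.

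**Figure D4:**
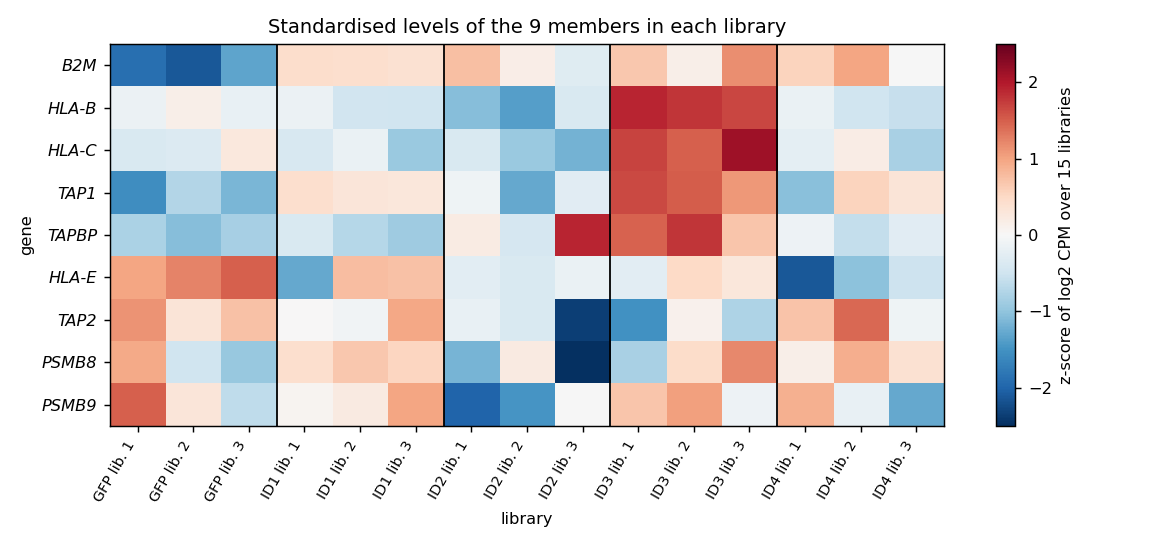
Standardised level of each member (vertical axis) in each of the 15 libraries (horizontal axis, lines between groups), as a z-score of log2 CPM over the libraries. HLA-B, HLA-C, TAP1 and TAPBP are above their mean in the 3 libraries labelled ID3, B2M is below its mean in the 3 GFP libraries, and library 3 of ID2 is low for TAP2 and PSMB8 and high for TAPBP.

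The balance of light chain to heavy chain mRNA was compared by counts, which gives no ratio of molecules because the genes differ in their 3′ ends. B2M counts per count of HLA-B and HLA-C were 3.84 ± 0.35 in GFP and 4.82 ± 0.48 in the libraries labelled ID3 (SD, n = 3). They were 6.04 ± 0.12, 6.25 ± 0.84 and 6.17 ± 0.52 in those labelled ID1, ID2 and ID4 (SD, n = 3). The 3 GFP libraries (3.51 to 4.2) lay below all ID libraries, and the ID3 libraries reached 5.33, within the range of ID2 (5.32 to 6.95). PSMB9 counts per count of PSMB6, the constitutive subunit it replaces, were 0.0502 ± 0.00595 in GFP and 0.0384 ± 0.00336 in those labelled ID2 (SD, n = 3), without overlap. For PSMB8 and its counterpart PSMB5, the GFP libraries (0.260 to 0.274) lay within the range of ID2 (0.193 to 0.279) and below all libraries labelled ID4 (0.285 to 0.291).

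Other genes of the pathway were described as fixed lists. Their counts stand beside the shares of all genes tested against GFP in the order ID1 to ID4. Those shares were 12.4%, 18.5%, 15.1% and 12.1% higher, and 9.73%, 16.7%, 13.5% and 9.51% lower. Of the 6 genes of peptide loading and trimming, 2 rose with ID1, 4 with ID2, 3 with ID3 and 2 with ID4, and 1 fell with ID3, and their median log2 fold change was 0.05, 0.32, 0.14 and 0.18. Calreticulin (CALR), a chaperone of the loading complex, rose by 0.35 with ID2 and 0.19 with ID3 (adjusted p = 1.25e-06 and 0.00155). TAPBPL, a tapasin relative that edits peptides, rose by 0.69, 1.22, 0.78 and 1.15 (adjusted p = 0.0381, 0.000188, 0.0154 and 0.000785) from 2.57 ± 0.36 CPM in GFP (SD, n = 3). For ID1 and ID3 the TAPBPL calls were lost without 1 of several libraries (adjusted p up to 0.128 and 0.132). ERAP2, an aminopeptidase that trims peptides, fell by 0.55 on the log2 scale with ID3 (adjusted p = 0.00136).

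Of the 3 other immunoproteasome and PA28 genes, PSMB10 and PSME1 fell in all 4 ID groups. PSMB10, the remaining inducible catalytic subunit, had log2 fold changes of -0.32, -0.33, -0.26 and -0.25 (adjusted p = 0.00216, 0.00095, 0.00812 and 0.0138), the last being 0.0507 without GFP library 2. PSME1, a subunit of the proteasome activator PA28, had log2 fold changes of -0.39, -0.26, -0.50 and -0.56 (adjusted p = 0.00222, 0.024, 0.00019 and 8.61e-05), the ID2 value reaching 0.118 without GFP library 1. Its partner PSME2 rose with ID1 (0.34, adjusted p = 0.000909) and ID2 (0.41, adjusted p = 7.73e-05). Of 17 constitutive proteasome genes, 2, 1, 2 and 2 rose and 0, 2, 1 and 0 fell in the order ID1 to ID4, with medians of 0.00, -0.03, -0.04 and -0.04. PSMB1 rose in all 4 groups, by 0.24, 0.37, 0.33 and 0.27 (adjusted p = 0.00639, 4.32e-05, 0.000234 and 0.00265).

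Among 6 other class I and class I-like heavy chains, 4 were tested, of which 0, 1, 1 and 0 rose in the order ID1 to ID4 and none fell. The gene that rose was MR1, which presents vitamin B metabolites, with ID2 (0.47, adjusted p = 0.000257) and ID3 (0.28, adjusted p = 0.023, and up to 0.117 without 1 library). Of 8 NKG2D ligands, 6 were tested, and MICA, a stress-induced ligand, alone rose, with ID1 (0.37, adjusted p = 0.00457), ID2 (0.59, adjusted p = 2.1e-05) and ID3 (0.49, adjusted p = 0.000246).

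Among 11 class I transcription factors, 1, 1, 2 and 1 rose and 2, 3, 2 and 3 fell in the order ID1 to ID4. NLRC5, the transactivator of class I genes, was at 10.6 to 11.5 CPM in GFP, 12.5 to 13.3 in the libraries labelled ID1, 11.2 to 13.8 with ID2, 13.5 to 15.7 with ID3 and 13.5 to 14.6 with ID4. It rose with ID3 (log2 fold change 0.40, SE 0.11, adjusted p = 0.0073) and ID4 (0.35, SE 0.11, adjusted p = 0.0227), and the ID4 call was lost without GFP library 1 or 2 or ID4 library 1 or 2 (adjusted p = 0.0593 to 0.0829). RELA, an NF-κB subunit, fell in all 4 groups by 0.30, 0.45, 0.20 and 0.41 on the log2 scale (adjusted p = 0.000925, 6.15e-06, 0.0159 and 3.74e-05), the third reaching 0.0645 without GFP library 1. CREB1 fell in all 4 groups too, by 0.59, 0.45, 0.47 and 0.52 on the log2 scale (adjusted p = 3.88e-05, 0.000392, 0.000374 and 0.000176). IRF1, which binds the interferon element, was counted not among these 11 but with the interferon signalling genes described next. It fell with ID2 (-0.53, adjusted p = 7.85e-05) and ID4 (-0.31, adjusted p = 0.0179, and up to 0.0768 without 1 ID4 library).

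Of 13 interferon receptor and signalling genes, 2, 2, 2 and 2 rose and 1, 3, 2 and 2 fell. The interferon-gamma receptor chain IFNGR2 fell in all 4 groups, from 53.7 ± 3.32 CPM in GFP to 25.3 ± 2.92, 19.1 ± 0.697, 31.5 ± 2.47 and 33.9 ± 1.78 (SD, n = 3). Its log2 fold changes were -1.10, -1.48, -0.79 and -0.67 (adjusted p = 1.45e-09, 8.69e-12, 1.75e-07 and 2.73e-06). The kinase JAK1 rose in all 4, by 0.36, 0.37, 0.52 and 0.26 (adjusted p = 8.94e-05, 3.27e-05, 6.83e-07 and 0.00279), as did STAT2, by 0.31, 0.65, 0.56 and 0.32 (adjusted p = 0.0092, 2.27e-06, 2.39e-05 and 0.00978), the first being 0.067 without ID1 library 1. Of 30 interferon-stimulated genes, 21 were tested, and 3, 4, 3 and 2 rose while 2, 4, 5 and 4 fell, with medians of -0.16, -0.03, 0.04 and 0.05. Over all genes tested, 12.4%, 18.5%, 15.1% and 12.1% rose and 9.73%, 16.7%, 13.5% and 9.51% fell. With the ID3 label, for example, the antiviral synthetase gene OAS3 fell (-0.94, adjusted p = 0.000169) and IFIT2, an interferon-induced inhibitor of translation, rose (1.03, adjusted p = 0.00526).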

How the data were processed

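Total RNA of 15 U87MG samples was sequenced by eBiogen with the QuantSeq 3′ kit against hg19 (GRCh37). The submitters' processing notes name Bowtie2 and BWA without a role, and the counter and annotation are not given in the sources used here. The authors deposited raw read counts per gene symbol, not normalized, and the log2 of normalized counts, labelled as quantile normalized. The labels do not say that libraries came from separate cultures, so p-values may measure technical spread only.

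Counts were fitted with edgeR 4.0.16 in R 4.3.3 (TMM factors 0.978 to 1.03, 1 mean per group over 15 libraries, common dispersion 0.00463, quasi-likelihood test, two-sided, Benjamini-Hochberg adjustment, threshold 0.05). Genes in the upper 50% by their mean over the deposited log2 columns (3.22 or more) were tested, 12870 in all. Levels are CPM of the library total. The standard error is the log2 fold change divided by the root of F, and intervals are 1.96 standard errors on either side. Such intervals are approximate and narrower than the quasi-likelihood test implies, so one can leave out 0 at an unadjusted p just above 0.05. The test was tried on simulated counts. Gene positions came from GENCODE lifted to GRCh37, matched by symbol for 22331 entries and by an older symbol for 1418, with 1988 unmatched. The equal replicate numbers did not pair the libraries (mean correlation of deviations -0.03 over 30 pairs). Single correlations ran from -0.33 to 0.30 in pairs with equal numbers and from -0.26 to 0.28 in the other pairs. Each of these extremes involved ID2 library 3, and no component shared by libraries of different numbers was put in the fit. Alternatives were RLE size factors, library totals, other filters, a replicate block, only 2 groups, a fold threshold of 1.5, DESeq2 1.42.0, limma 3.58.1 with trend, and each library left out. Changes of the members less the median of neighbours within 5 Mb were also computed, without a test. The members and lists were chosen with earlier results of these data known. The text names all members, at most 3 genes of each list with the smallest p over the 5 groups, NLRC5, IRF1 and PSMB10, the markers GFAP, VIM and PTPRC, and 4 genes that were among those most like the members. Other genes were named after their values were seen. Some genes of the lists, and a planned sum that needs one of them, are not reported here. Figures were drawn with matplotlib 3.10.9.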

Additional observations from a re-analysis of the deposited data

Results flagged for a closer look

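The effect of the ID label differed between groups for 3 members, by edgeR's test of the contrast between the 2 labels themselves. HLA-B was lower with ID1 than with ID3 (log2 fold change -0.40, adjusted p = 1.23e-05), lower with ID2 than with ID3 (-0.51, adjusted p = 2.33e-07) and higher with ID3 than with ID4 (0.41, adjusted p = 7.71e-06). HLA-C had the same signs (-0.34, adjusted p = 0.000556, then -0.39, adjusted p = 6.21e-05, and 0.31, adjusted p = 0.00119). TAPBP was lower with ID1 than with ID3 (-0.27, adjusted p = 0.00979) and higher with ID3 than with ID4 (0.23, adjusted p = 0.0253), both calls being lost without single libraries. In all of these, each of the 3 libraries labelled ID3 was above each library of the other label. The HLA-B and HLA-C differences were called under every alternative that tests them, except that a fold of at least 1.5 was not reached.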

How the results depend on the processing

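The rises of B2M in the 4 ID groups passed every alternative that was tested, apart from a required fold of 1.5. So did the rises of HLA-B, HLA-C, TAP1 and TAPBP with ID3 and the fall of HLA-E with ID4. Less the median of neighbours within 5 Mb, which was given no test, B2M was at 0.27, 0.33, 0.38 and 0.29 for ID1 to ID4. Without that subtraction, only B2M of these also reached a fold of 1.5, with ID1, ID3 and ID4. With that fold required, 0 members were called for ID2, 1 each for ID3 and ID4 against GFP, and 0 for ID1 against ID3, ID2 against ID3 and ID3 against ID4. With only the 2 groups fitted, 2 members were called for ID2 against GFP. For ID1 against ID2, 1 was called with library totals alone and 1 without a filter, and for ID2 against ID4, 1 was called with RLE, library totals, filterByExpr, no filter, DESeq2 or limma. The replicate block gave 1, 5, 5 and 2 members called against GFP, 4 for ID3 against ID4 and 5 over the 5 groups, and was not used because equal numbers did not pair the libraries. With 1 library left out, members called ranged from 1 to 1 (ID1), 3 to 5 (ID2), 5 to 6 (ID3) and 2 to 2 (ID4) against GFP, from 0 to 2 (ID1 against ID2), 2 to 3 (ID1 against ID3), 0 to 1 (ID1 against ID4), 2 to 3 (ID2 against ID3), 0 to 2 (ID2 against ID4), 2 to 3 (ID3 against ID4) and 5 to 7 over the 5 groups. The shares of all genes called under these alternatives were not computed, so the member counts have no such share beside them. The log2 fold change of HLA-B and HLA-C summed ranged from -0.20 to -0.12 with ID2 and 0.32 to 0.35 with ID3. Signs of the log2 fold change turned only in values that were not called. PSMB9 with ID1 was 0.0056 with library totals, 0.0033 with limma and -0.10 to 0.11 with 1 library left out. With 1 library left out, PSMB8 with ID3 ranged from -0.0039 to 0.090, PSMB9 with ID3 from -0.080 to 0.13, HLA-C with ID4 from -0.057 to 0.017, TAP2 with ID4 from -0.062 to 0.051, and B2M from -0.017 to 0.13 (ID1 against ID2), -0.10 to 0.034 (ID1 against ID4) and -0.029 to 0.11 (ID3 against ID4). IRF1 with ID1 ranged from -0.15 to 0.033. The cause of these changes was not tested. Depth limited PSMB9 most, at 83 counts in its lowest library.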

Other observations

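CIITA, the class II transactivator, was at 343 to 506 counts per library, and the 14 immune and class II markers summed to 404 to 424 CPM in GFP, 345 to 359 with ID1, 357 to 384 with ID2, 444 to 467 with ID3 and 445 to 493 with ID4. Of the 9 markers tested, 0, 1, 2 and 3 rose and 5, 5, 0 and 0 fell against GFP in the order ID1 to ID4. Over all genes tested, 12.4%, 18.5%, 15.1% and 12.1% rose and 9.73%, 16.7%, 13.5% and 9.51% fell. HLA-DRA, a class II chain, fell with ID1 (log2 fold change -0.33, adjusted p = 0.00184) and ID2 (-0.44, adjusted p = 5.81e-05) and rose with ID3 (0.20, adjusted p = 0.0353) and ID4 (0.26, adjusted p = 0.0114), the last 2 being lost without single libraries (adjusted p up to 0.196 and 0.0918). CD74, the invariant chain, rose with ID4 (0.42, adjusted p = 9.62e-05).

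Among the genes whose log2 CPM was most like the mean z-score of the 9 members over the 15 libraries were HIVEP1 (Pearson's r = 0.90), C19orf44 (0.90), BCAR1 (0.89) and KIAA0513 (0.88). All 4 had their highest group mean in the libraries labelled ID3. The members' mean z-score was itself highest there, so this peak largely follows from how the 4 genes were picked. HIVEP1, for example, was at 9.45 CPM in those libraries and at 5.43 to 7.49 CPM in the other groups. These values describe libraries that share 1 cell line, and they were given no test.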
